A study of Arabidopsis thaliana with 30 samples.

Results

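Seedlings of the Arabidopsis line mbs1-1 were compared with wild type before any high light. The comparison rests on 6 of the 30 arrays of the study, namely 3 of mbs1-1 and 3 of wild type at 0 h, chosen by their labels alone, and it covers 22746 probe sets. Both lines are Col-0, the common laboratory strain, and the labels give 3 biological replicates for each. The seedlings were 12 days old, grew on agar with sucrose, had been adapted for 7 days to continuous light of 10 µE per square metre and second, and were harvested without roots. The study also sampled RNAi-MBS2/mbs1-1, which adds RNA interference against MBS2 to the mutant, 35S:MBS1, which overexpresses MBS1 from the 35S promoter, and flu, which makes singlet oxygen in light after darkness, and it sampled all 5 lines again at 3 h of 1000 µE per square metre and second that followed 3 h of darkness. Per the labels the study used knock-out and knock-down lines, without saying which kind mbs1-1 is or how many seedlings made up a sample. They also leave unsaid whether plants of the 0 h groups spent that dark time first. Transcripts of fewer cells of a type and less transcript per cell cannot be told apart in such whole-shoot RNA.

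MBS1 is a small zinc-finger protein that Arabidopsis needs for its response to singlet oxygen, a reactive form of oxygen that chlorophyll produces in excess light. Plants without it are known for sensitivity to strong light and to dyes that make singlet oxygen. MBS2 is its close relative. In dim light little singlet oxygen is made, and the 0 h comparison therefore asks what the mutant differs in before the stress.

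Few single genes differed. With limma, a linear-model test for arrays, 7 probe sets had an adjusted p under 0.05, 3 higher and 4 lower in mbs1-1, which is 0.0308% of those tested (0.0132% higher and 0.0176% lower). Only 2 of them, AT3G52070 and AT1G62250, are assigned to 1 gene by the annotation held, and the other 5 are given by their probe set numbers. The annotation assigns no probe set to MBS1 or MBS2, so no value here is given for the mutated gene by name, although a probe set for it may be among the unassigned ones tested.

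**Figure D1:**
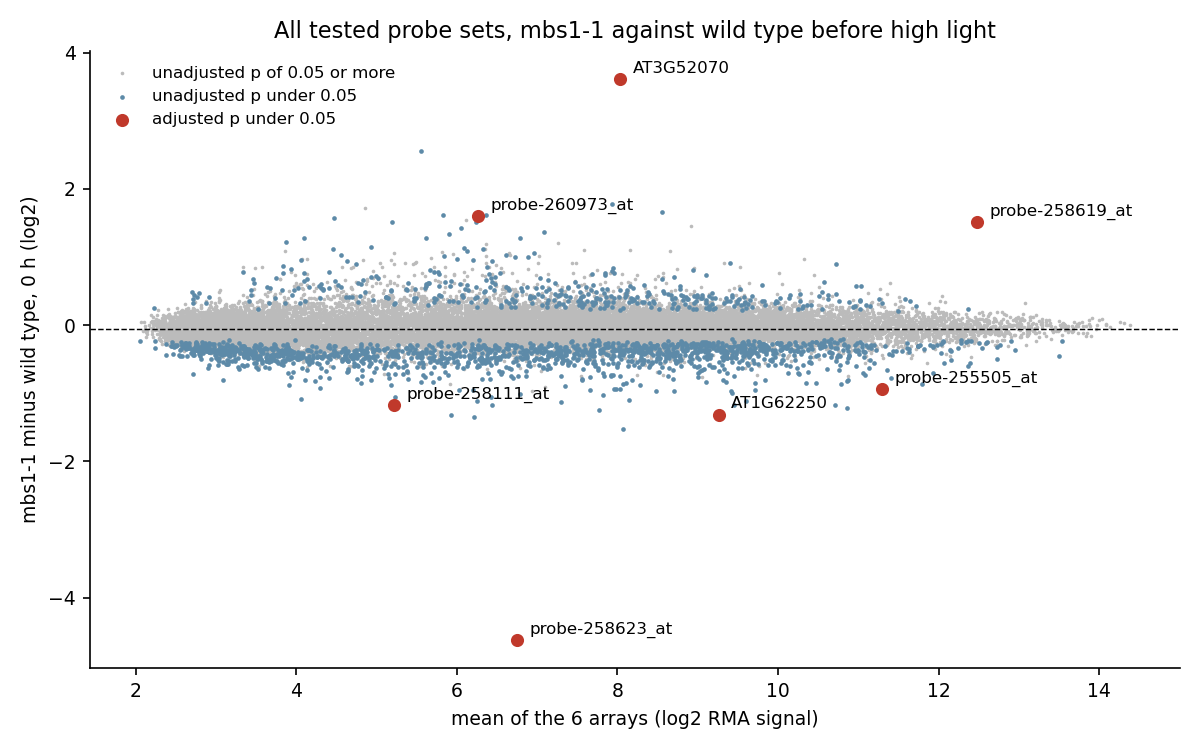
Each point is a probe set, placed by its mean log2 signal over the 6 arrays and by its log2 difference between mbs1-1 and wild type at 0 h. The 7 called probe sets are named in red, the largest differences being -4.62 for probe-258623_at and 3.62 for AT3G52070, and the dashed line is the median of all probe sets, -0.06.

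The largest difference was that of probe-258623_at. Its log2 signal was 9.02, 9.16 and 8.98 in the wild-type arrays and 4.74, 4.48 and 4.09 in the mbs1-1 arrays. The 2 groups lay far apart, with a log2 difference of -4.62 (SE 0.22, adjusted p = 3.81e-13), a 24.6-fold lower signal. The other lines separated by their MBS1 genotype, as RNAi-MBS2/mbs1-1 had 5.23, 4.36 and 5.55, 35S:MBS1 had 13.64, 13.98 and 13.83, and flu had 9.65, 9.0 and 9.22. At 3 h of high light the difference between mbs1-1 and wild type was -4.34 (SE 0.22, adjusted p = 1.70e-12).

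AT3G52070 had the largest higher signal in mbs1-1. It measured 6.81, 6.29 and 5.59 in wild type and 10.07, 9.50 and 9.97 in mbs1-1, so that no array of one line reached the other. The log2 difference was 3.62 (SE 0.24, adjusted p = 4.48e-10), a 12.3-fold higher signal. The level in mbs1-1 was, however, also the level of the other lines: RNAi-MBS2/mbs1-1 had 9.86, 9.67 and 9.81, 35S:MBS1 had 10.03, 10.36 and 10.02, and flu had 9.74, 10.31 and 10.43. The log2 difference from the same wild-type arrays was called for each, at 3.55, 3.91 and 3.93, where limma called 0.0308%, 0.0176% and 0.506% of probe sets. Wild type thus stood apart from all 4 other lines, including one that overexpresses MBS1. The difference persisted at 3 h, at 2.50 (SE 0.24, adjusted p = 1.43e-06).

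AT1G62250 was the only called probe set with 1 gene that was lower in mbs1-1. Its signal was 10.04, 9.89 and 9.82 in wild type and 8.72, 8.85 and 8.24 in mbs1-1. That is a log2 difference of -1.31 (SE 0.16, adjusted p = 9.39e-05). RNAi-MBS2/mbs1-1, which carries the same mbs1-1 allele, measured 10.21, 10.08 and 10.21 and so lay with wild type. It was the only probe set called between RNAi-MBS2/mbs1-1 and mbs1-1 at 0 h (log2 difference 1.56, SE 0.16, adjusted p = 1.30e-05), 0.0044% of those tested. The 35S:MBS1 arrays had 10.20, 10.18 and 10.08 and those of flu 9.80, 9.89 and 10.28. Low signal was thus seen in mbs1-1 alone among the 5 lines, and it was also low there at 3 h, with a difference of -1.54 from wild type (SE 0.16, adjusted p = 4.25e-06). Its adjusted p at 0 h was 0.0533 when only the 6 compared arrays were fitted, and 1.02e-05 to 0.0533 over all alternatives.

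The remaining 4 called probe sets had no gene assigned. Probe-258619_at measured 11.79, 11.59 and 11.78 in wild type and 13.20, 13.19 and 13.31 in mbs1-1, a log2 difference of 1.51 (SE 0.11, adjusted p = 1.39e-09). Its values of 12.76, 12.64 and 12.58 in RNAi-MBS2/mbs1-1 lay between those of both lines. The arrays of 35S:MBS1 and flu, from 11.59 to 11.86, lay at the wild-type level.

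Probe-258111_at was the only called probe set whose change of the difference between the times passed limma's test at an adjusted p under 0.05. Before high light it measured 5.60, 5.90 and 5.92 in wild type and 4.57, 4.64 and 4.69 in mbs1-1, a log2 difference of -1.17 (SE 0.15, adjusted p = 0.000241). At 3 h it measured 5.13, 4.91 and 4.87 in wild type and 5.44, 5.30 and 5.31 in mbs1-1. The order of the lines was thus the opposite, and the 3 h difference exceeded the 0 h difference by 1.55 (SE 0.22, adjusted p = 0.0038), in a comparison where 0.0528% of probe sets were called. The 3 h difference alone, 0.38, did not pass the test (adjusted p = 0.353). Among the other lines at 0 h, flu was the highest, with 6.65, 6.64 and 6.96.

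Probe-255505_at measured 11.54, 11.86 and 11.87 in wild type and 10.92, 10.66 and 10.88 in mbs1-1, and the arrays did not overlap. The log2 difference was -0.94 (SE 0.15, adjusted p = 0.00915), but the adjusted p rose to between 0.0551 and 0.168 in 4 of the alternatives, which were the fit to the compared arrays alone and the fits without mbs1-1 replicate 2, wild-type replicate 2 or wild-type replicate 3. Probe-260973_at measured 5.84, 5.11 and 5.44 in wild type and 7.17, 7.14 and 6.87 in mbs1-1, with a log2 difference of 1.60 (SE 0.29, adjusted p = 0.0262). It lost its call without any 1 of the mbs1-1 arrays or without wild-type replicate 2 or 3, at adjusted p of 0.0633 to 0.238. In RNAi-MBS2/mbs1-1 these probe sets had 10.96 to 11.06 and 7.23 to 7.33, close to mbs1-1. Flu differed from the same wild-type arrays by -0.19 for probe-255505_at and 0.82 for probe-260973_at. Neither was called there (adjusted p = 0.738 and 0.287).

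**Figure D2:**
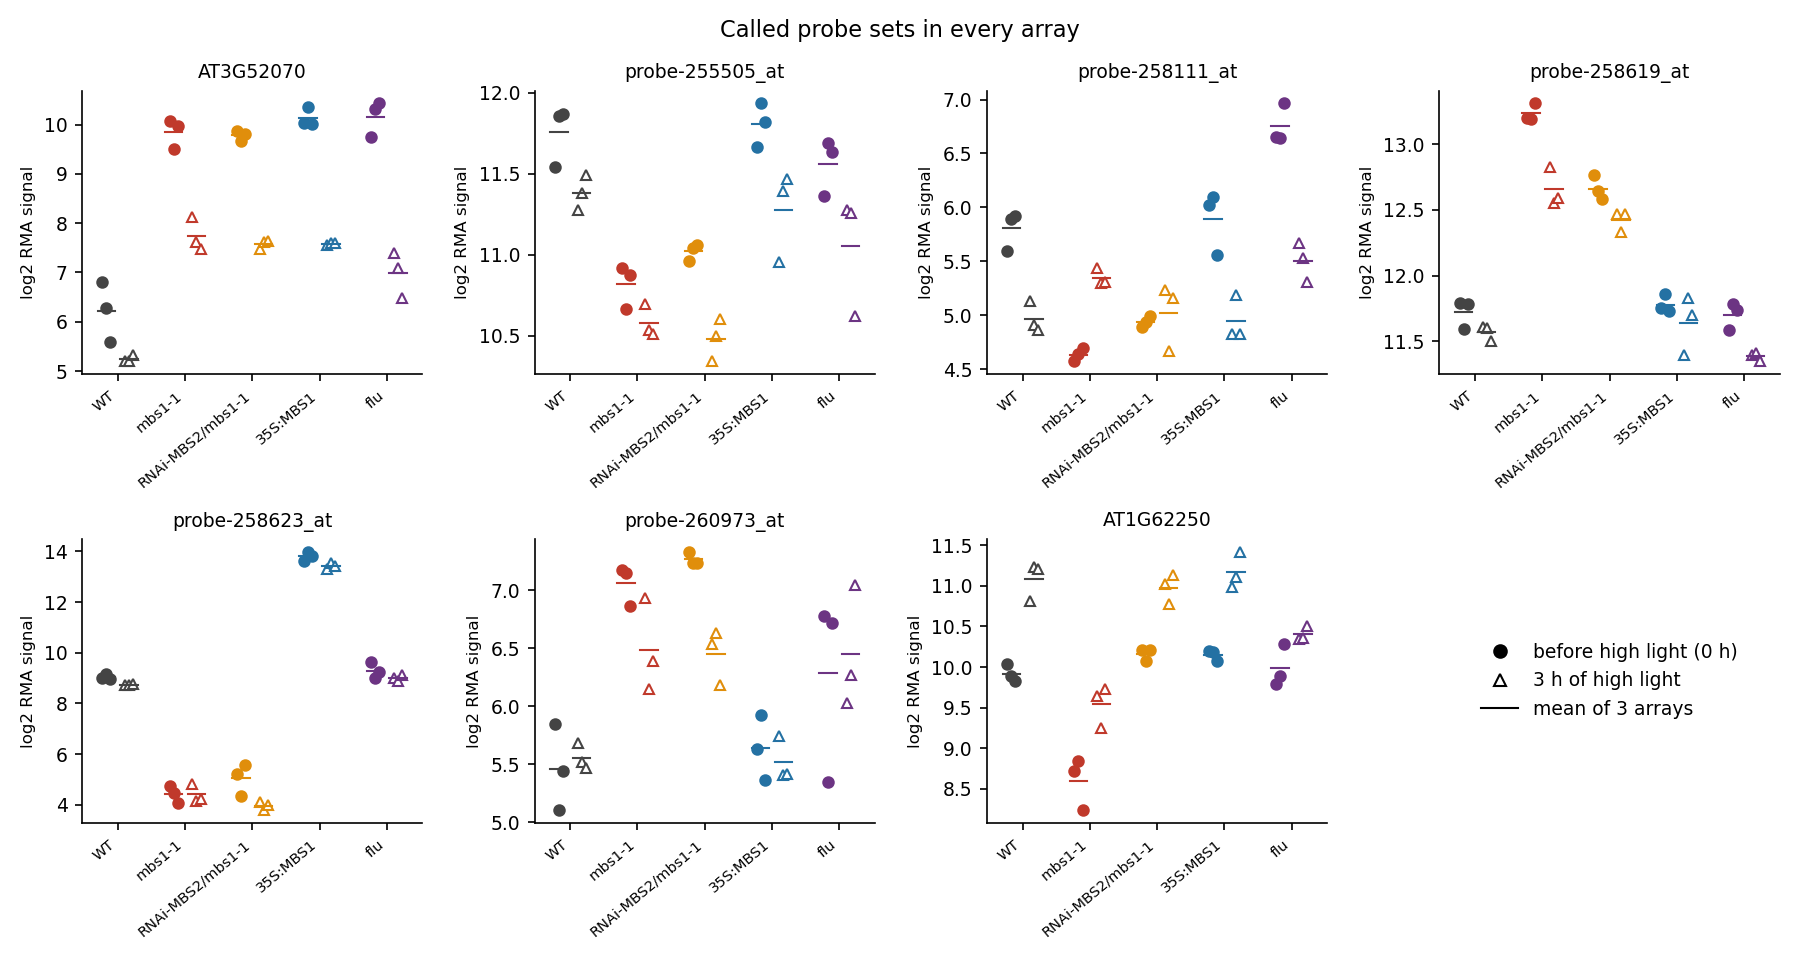
Log2 signal of the 7 called probe sets in all 30 arrays, with 1 panel for each probe set, filled circles for 0 h, open triangles for 3 h of high light and a line at the mean of 3 arrays. Wild type stands apart in AT3G52070 and mbs1-1 stands apart in AT1G62250, while probe-258623_at is low in both mbs1-1 lines and high in 35S:MBS1.

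Below the adjusted threshold the mutant differed from wild type by small amounts in many probe sets. An unadjusted p under 0.05 was reached by 1908 probe sets, 8.39% of those tested, of which 395 were higher (1.74%) and 1513 lower (6.65%) in mbs1-1. The median of all probe sets was -0.06, and 62.5% lay below 0. This lean towards lower values moved with 1 array. Wild-type replicate 1 had a mean signal of 6.88, against 6.70 to 6.74 in the other 5 arrays, and without it 607 probe sets were higher and 797 lower, with a median of -0.00. After quantile normalization, which gives all arrays the same distribution, the counts were 813 and 1047.

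Within the 2 groups arrays correlated at 0.992 to 0.996. The 3' minus 5' log2 signal of the actin controls, a measure of RNA integrity, was 6.04 to 6.39 in wild type and 6.53 to 6.59 in mbs1-1 and did not overlap, whereas that of the GAPDH controls was 3.3 to 3.79 and 3.45 to 3.71 and did. The part of RNA quality in the small differences was not tested. Of 17 green leaf markers 3 were measured and of 26 root markers 6. The mean log2 signal of the leaf markers was 12.57 to 12.65 in the wild-type arrays and 12.60 to 12.67 in those of mbs1-1, and that of the root markers was 5.55 to 5.99 and 5.72 to 5.80. The leaf markers were bright in both groups and the ranges overlapped. The 25S ribosomal RNA control was 5.02 to 5.17 in wild type and 4.16 to 4.87 in mbs1-1, lowest in replicate 2.

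Among probe sets with 1 gene, 482 had all mbs1-1 arrays above all wild-type arrays (3.57%, and 4.1% of all probe sets) and 1780 had them all below (13.2%, and 12.6% of all). The 12 with the smallest p in each direction are named here, and apart from AT3G52070 and AT1G62250 none passed the adjusted test. The other 11 that were higher had differences of 0.58 to 1.09. They included SAPX, the stromal ascorbate peroxidase, which removes hydrogen peroxide in chloroplasts and mitochondria. SAPX measured 8.11, 9.05 and 9.68 in wild type and 9.84, 9.81 and 9.93 in mbs1-1. The wild-type arrays spread over more than the difference of 0.91 (SE 0.23, adjusted p = 0.287), whereas the mbs1-1 arrays lay close together, and all were above wild type. Without wild-type replicate 3 the difference was 1.28 with an adjusted p of 0.00647, so the call depends on which wild-type arrays are used. SAPX was also higher in flu than in the same wild-type arrays, by 0.78, without a call (adjusted p = 0.188).

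The other named genes on the higher side have no more than a locus number in the annotation. AT4G04260 measured 5.82, 5.56 and 5.36 in wild type and 7.14, 6.72 and 6.14 in mbs1-1, the largest difference among them at 1.09 (SE 0.25, adjusted p = 0.206). AT5G37450 measured 3.93, 3.12 and 3.51 against 4.35, 4.02 and 4.68, a difference of 0.83 (adjusted p = 0.228). This gene had almost the same difference at 3 h, 0.89 (SE 0.20), and passed the test there (adjusted p = 0.0371), where 0.435% of probe sets were called. Its signal was also above wild type in the other lines, where RNAi-MBS2/mbs1-1 had 5.27, 5.0 and 4.72, 35S:MBS1 had 4.40, 4.16 and 4.66, and flu had 5.12, 4.65 and 5.2. AT5G54910, AT5G42150, AT1G30960, AT1G56670, AT5G59900, AT3G16560, AT4G22730 and AT1G55915 had differences of 0.58 to 0.77.

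On the lower side the 11 genes beside AT1G62250 had differences of -1.53 to -0.52. UGT85A4, a member of the glycosyltransferases that attach sugars to small molecules, measured 9.41, 9.36 and 9.29 in wild type and 8.72, 8.63 and 8.59 in mbs1-1, a difference of -0.71 (SE 0.14, adjusted p = 0.0882). AT5G13350 had the same adjusted p of 0.0882 at a difference of -0.81, with 3.96, 3.47 and 3.05 in wild type and 2.58, 2.60 and 2.89 in mbs1-1, and it passed without wild-type replicate 3 (adjusted p = 0.00218). AT2G37950 measured 7.86, 7.78 and 7.94 against 6.84, 6.76 and 6.61, a difference of -1.13 (SE 0.24, adjusted p = 0.156, and 0.0253 in the fit to the compared arrays alone). OLEO3, an oleosin of the coat of oil bodies, measured 5.70, 5.90 and 5.45 against 4.75, 5.12 and 5.02, a difference of -0.72 (adjusted p = 0.228). The others were AT3G27980, AT4G25580, AT2G35360, AT4G16000, AT3G62950, AT2G35430 and AT2G19970. Of the genes named on the lower side, AT2G19970 alone was also called lower in flu against the same wild-type arrays. Its difference there was -1.10 (adjusted p = 0.0399), where 0.506% of probe sets were called.

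The lists of genes by pathway and family contained 46 with at least 3 measured genes, which together held 711 genes. No member of any list had an adjusted p under 0.05. Lists are therefore described by the number of members with an unadjusted p under 0.05, set against the 1.74% higher and 6.65% lower of all probe sets, and by the median difference, set against the median of -0.06. By these measures 17 lists stood off the whole by the margin chosen. It was a share at least 2 times that of all probe sets in 1 direction or a median at least 0.1 away. In short lists 1 member past the unadjusted threshold was enough, as for the 6 WRKY factors and the 7 calmodulin-like proteins measured.

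The largest shift was in genes induced by darkness and sugar starvation. Plants use such genes to break down amino acids and sugars of the cell when photosynthesis does not feed it, and their transcripts are lowered by light and sugar. All 9 of the 9 measured genes (of 37 listed) lay below 0 in mbs1-1, 8 of them with no overlap of the arrays, where 12.6% of all probe sets had all mbs1-1 arrays below all wild-type arrays. The unadjusted threshold was passed by 4. The median difference was -0.46. It was -0.41 after quantile normalization and -0.45 without wild-type replicate 1, and leaving out any 1 of the 6 arrays gave -0.47 to -0.38. The number past the unadjusted threshold was 3 after quantile normalization and 2 without wild-type replicate 1.

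Within this list AT3G62950 had the largest difference. It measured 8.67, 9.36 and 8.46 in wild type and 7.64, 7.04 and 7.21 in mbs1-1, a difference of -1.53 (SE 0.35, adjusted p = 0.206). ATL8, of a family of RING-type ubiquitin ligases, measured 6.14, 6.19 and 6.15 against 5.73, 5.15 and 5.29, a difference of -0.77 (SE 0.20, adjusted p = 0.287). In both genes every wild-type array was above every mbs1-1 array.

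Genes of leucine breakdown in mitochondria had smaller differences, all below 0. MCCB, a subunit of methylcrotonyl-CoA carboxylase, measured 12.07, 11.98 and 11.90 in wild type and 11.67, 11.67 and 11.59 in mbs1-1, a difference of -0.34 (SE 0.14, adjusted p = 0.525). MCCA, the other subunit, measured 13.03, 13.03 and 12.98 against 12.84, 12.76 and 12.53, a difference of -0.30. IVD, the isovaleryl-CoA dehydrogenase one step before, measured 11.43, 11.72 and 11.37 against 11.40, 11.25 and 11.19, and was the only gene of the list whose arrays overlapped. AT5G57655, AT3G15450, AT4G27450 and PPDK, the pyruvate orthophosphate dikinase, had differences of -0.55 to -0.23.

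At 3 h of high light the same list had a median of 0.19 in mbs1-1 against wild type, beside 0.08 for all probe sets, and 2 of 9 genes lay below 0. The 0 h shift was therefore not seen there, although the change of the list between the times was not tested. In the other lines, which were compared with the same wild-type arrays, RNAi-MBS2/mbs1-1 had a 0 h median of -0.33, 35S:MBS1 one of -0.27 and flu one of -0.04. In 35S:MBS1 all 9 genes fell between 0 h and 3 h, with a median of -2.46, so that the shift in mbs1-1 is small beside the change with high light.

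Transcripts encoded in the mitochondrion itself, most of them for subunits of the respiratory chain and factors of its assembly, were shifted in the same direction. Of 16 measured genes 14 lay below 0 (87.5%, beside 62.5% of all probe sets) and 3 passed the unadjusted threshold. The median was -0.32, or -0.29 after quantile normalization. nad1, of respiratory complex I, measured 6.93, 7.21 and 6.86 in wild type and 6.55, 6.54 and 6.33 in mbs1-1, a difference of -0.53 (SE 0.15, adjusted p = 0.409). nad4L measured 5.49, 5.37 and 5.37 against 5.0, 4.29 and 5.17, and cox1, of complex IV, 9.36, 9.22 and 9.10 against 9.01, 7.87 and 9.35. In 10 of the 16 genes the lowest value was that of mbs1-1 replicate 2, and without that array the median was -0.18.

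Plastid transcripts of photosynthesis and of the NDH complex, which sits in the thylakoid membrane, also lay mostly below 0. Of 43 measured genes 39 lay below 0 (90.7%, beside 62.5% of all probe sets), none passed the unadjusted threshold, and the median was -0.22. After quantile normalization 33 lay below 0, where 11557 of all 22746 probe sets did, and the median was -0.15. psbA, which encodes the D1 protein of photosystem II that is replaced when light damages it, measured 10.98, 11.41 and 11.35 in wild type and 10.91, 9.54 and 11.05 in mbs1-1. petG, of the cytochrome b6f complex, measured 8.71, 8.50 and 8.63 against 8.37, 6.95 and 8.30. In 39 of the 43 genes mbs1-1 replicate 2 was the lowest array, and without it the median was -0.09. The mean log2 signal of the 43 genes was 9.95, 9.41 and 9.92 in the mbs1-1 arrays and 10.02, 9.94 and 10.01 in those of wild type. Against the same wild-type arrays the 0 h median was -0.31 in flu, with 40 of the 43 genes below 0. It was -0.12 in RNAi-MBS2/mbs1-1, with 33 below 0, and -0.05 in 35S:MBS1, with 28. Plastid transcripts of gene expression, a list that did not meet the margin, leaned the same way in mbs1-1. Of 19 measured genes 18 lay below 0, 2 passed the unadjusted threshold on the lower side, and the median was -0.12. After quantile normalization 15 lay below 0 and the median was -0.07.

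Nuclear genes for the same organelles had medians nearer 0. Those of the respiratory chain had a median of -0.08 over 41 measured genes, with none past the unadjusted threshold. Those of the plastid ribosome had 0.01 over 8 genes, and those of the photosystems and electron transport 0.03 over 5. The cytosolic ribosomal proteins, the list with the most genes, had a median of -0.02 over 122 genes, of which 1 passed, on the lower side.

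**Figure D3:**
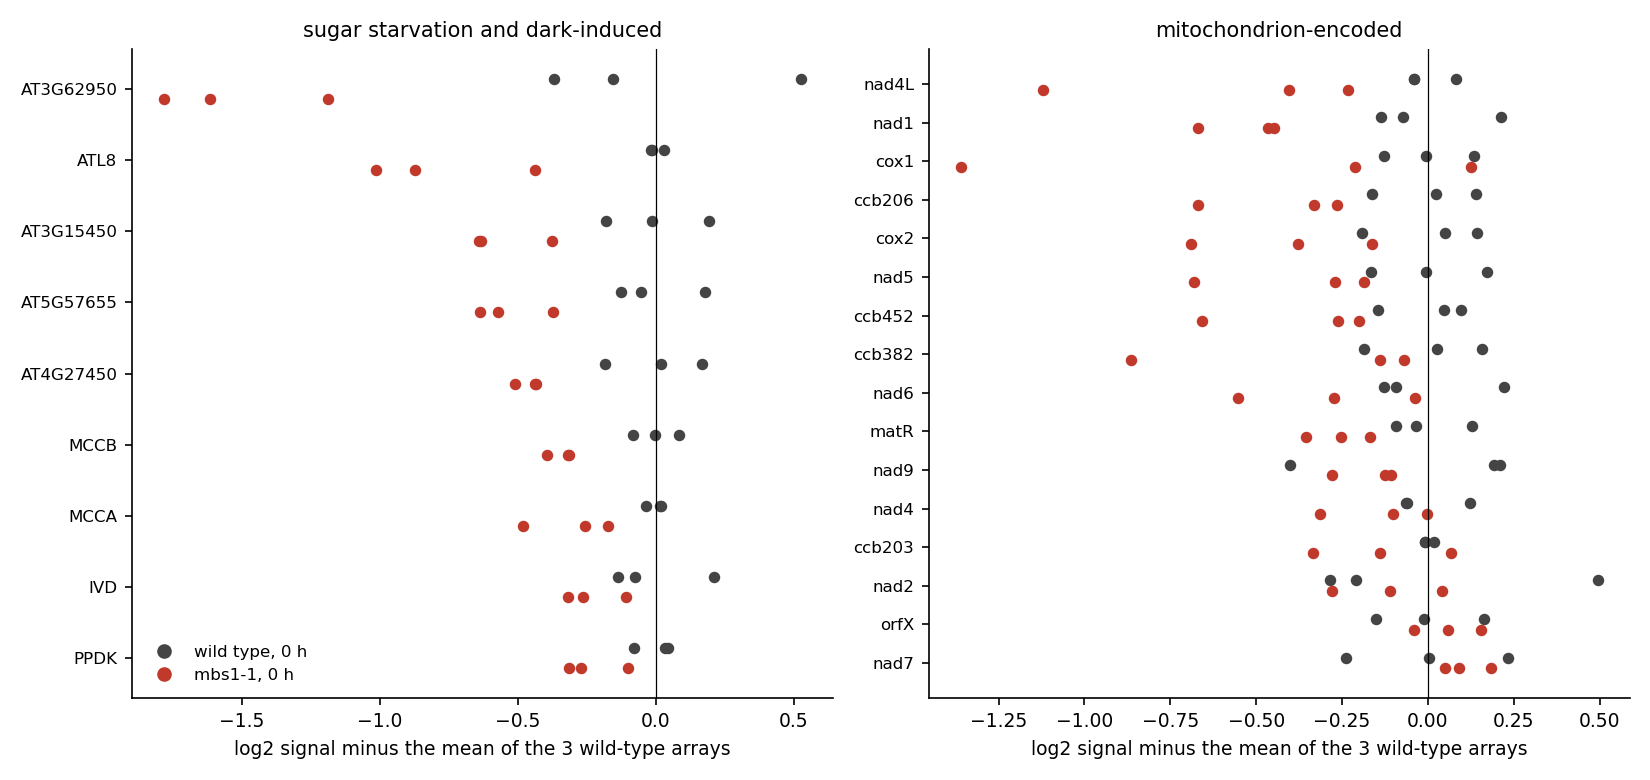
Log2 signal of each member in each array, less the mean of the 3 wild-type arrays, for the 9 genes of darkness and sugar starvation (left) and the 16 mitochondrion-encoded genes (right), wild type in grey and mbs1-1 in red. On the left 8 of 9 genes have no overlap, and on the right single low red points belong to mbs1-1 replicate 2, as in cox1 at 7.87.

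Genes that remove or report reactive oxygen gave small values. The list of hydrogen peroxide and antioxidant genes had 7 measured of 44 and a median of 0.13, with SAPX past the unadjusted threshold. The thylakoid ascorbate peroxidase TAPX, which does in the thylakoid membrane what SAPX does in the stroma, measured 10.52, 10.27 and 10.26 in wild type and 10.55, 10.43 and 10.37 in mbs1-1, a difference of 0.10. The glutathione reductases GR and GR1, which keep glutathione reduced, had differences of 0.13 and 0.15. STZ, a zinc-finger factor of stress responses, had 0.31 with arrays spread from 6.92 to 8.52. ATMDAR2, of the monodehydroascorbate reductases, had -0.11 and AT3G11630 had 0.04. The adjusted p of these 6 was 0.703 to 0.937.

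The genes known to respond to singlet oxygen, the signal MBS1 is studied for, had no member past the unadjusted threshold before high light. Of 26 listed genes 11 were measured, 5 lay below 0, and the median was 0.07. AT3G28580, widely used as a marker of singlet oxygen in flu, measured 4.76, 4.34 and 5.09 in wild type and 4.79, 5.52 and 5.74 in mbs1-1, a difference of 0.62 (SE 0.46, adjusted p = 0.711). AT5G61890 had a difference of 0.41 and AT4G24380 one of 0.18. The arrays of both lines overlapped in all 3. The median of the list turned to -0.02 without mbs1-1 replicate 1 or without wild-type replicate 2.

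Glutathione transferases, which join glutathione to reactive compounds, had members on both sides. Of 14 measured genes 3 were past the unadjusted threshold on the higher side and 1 on the lower, and the median was -0.02. GSTU25 measured 3.67, 3.65 and 3.74 in wild type and 3.76, 5.2 and 6.8 in mbs1-1, a difference of 1.57 (SE 0.71, adjusted p = 0.567). GSTU22 measured 3.6, 4.15 and 4.40 against 4.11, 5.02 and 6.09. In both genes the mutant arrays scattered more than the wild-type arrays, and the groups overlapped in GSTU22. Without wild-type replicate 1 no member passed on the higher side. GSTU27 had a difference of 0.28 and GSTU28 one of -0.56.

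Genes of sulphur assimilation and glucosinolates, sulphur compounds that defend the plant against herbivores, had the highest median, 0.26 over 4 measured of 44 listed, and all 4 lay above 0. AT1G04770 measured 8.55, 8.42 and 8.38 in wild type and 8.84, 8.91 and 8.94 in mbs1-1, a difference of 0.45 (SE 0.18, adjusted p = 0.523). UGT74B1, a glucosyltransferase of glucosinolate synthesis, had 0.38, AT2G31790 had 0.14 and BCAT4, which starts the chain elongation of methionine for these compounds, 0.06. In RNAi-MBS2/mbs1-1 the median of these genes against wild type was -0.10.

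Secondary metabolism showed lower values in a few members. Of 9 flavonoid and anthocyanin genes 2 passed the unadjusted threshold, both on the lower side. UGT78D2, a flavonoid glucosyltransferase, measured 7.92, 7.76 and 7.54 in wild type and 7.30, 7.33 and 7.29 in mbs1-1, a difference of -0.43 (SE 0.11, adjusted p = 0.264). UGT84A1, which adds glucose to hydroxycinnamic acids, measured 6.17, 5.65 and 5.86 against 5.47, 5.59 and 5.40, a difference of -0.41. CHIL and DFR, of the same list, had -0.22 and -0.29, and the median of the list was -0.10, or -0.00 without wild-type replicate 1. Among 24 cytochrome P450 genes, which oxidise small molecules, 3 passed, CYP718, CYP71B16 and CYP71B36, all lower, and the median was -0.16, or -0.08 after quantile normalization beside -0.00 for all probe sets. Without wild-type replicate 1 only 1 passed. In flu, against the same wild-type arrays, CYP71B36 was called lower at -1.67 (adjusted p = 0.00196), where 0.506% of probe sets were called. CYP71B16 and CYP718 had -0.17 and 0.48 in flu and were not called.

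The median of the heat shock chaperones, which refold damaged proteins, depended on the arrays used. The 13 measured genes had a median of 0.09, but it was -0.28 without wild-type replicate 1, -0.20 without wild-type replicate 2 and 0.72 without wild-type replicate 3. AT1G53540 measured 5.95, 6.39 and 11.98 in wild type and 8.74, 10.39 and 8.46 in mbs1-1. AT5G48570 measured 8.64, 8.70 and 11.54 against 10.26, 10.96 and 9.96. Wild-type replicate 3 was higher than every mbs1-1 array in both genes and the other wild-type arrays were lower, so that no direction can be given. Without that array AT5G48570 had a difference of 1.72 with an adjusted p of 0.00434.

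The remaining lists that met the margin had shifts of a similar small size. Defensin-like peptides had a median of -0.21 over 15 genes and -0.04 without wild-type replicate 1, with 1 member, PDF1.4, past the unadjusted threshold at -0.63. Among 6 WRKY factors WRKY22 passed at -0.74, with 8.33, 8.28 and 8.24 in wild type and 7.77, 7.36 and 7.51 in mbs1-1. Of 7 calmodulin-like proteins CML30 passed at -0.34. Glutamate receptor channels, beta-glucosidases, auxin and shade growth genes and the light-harvesting antenna had medians of 0.11, 0.08, 0.05 and 0.07, over 8, 20, 8 and 3 genes, and no member past the threshold. The other 29 lists had medians from -0.13 to 0.04.

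**Figure D4:**
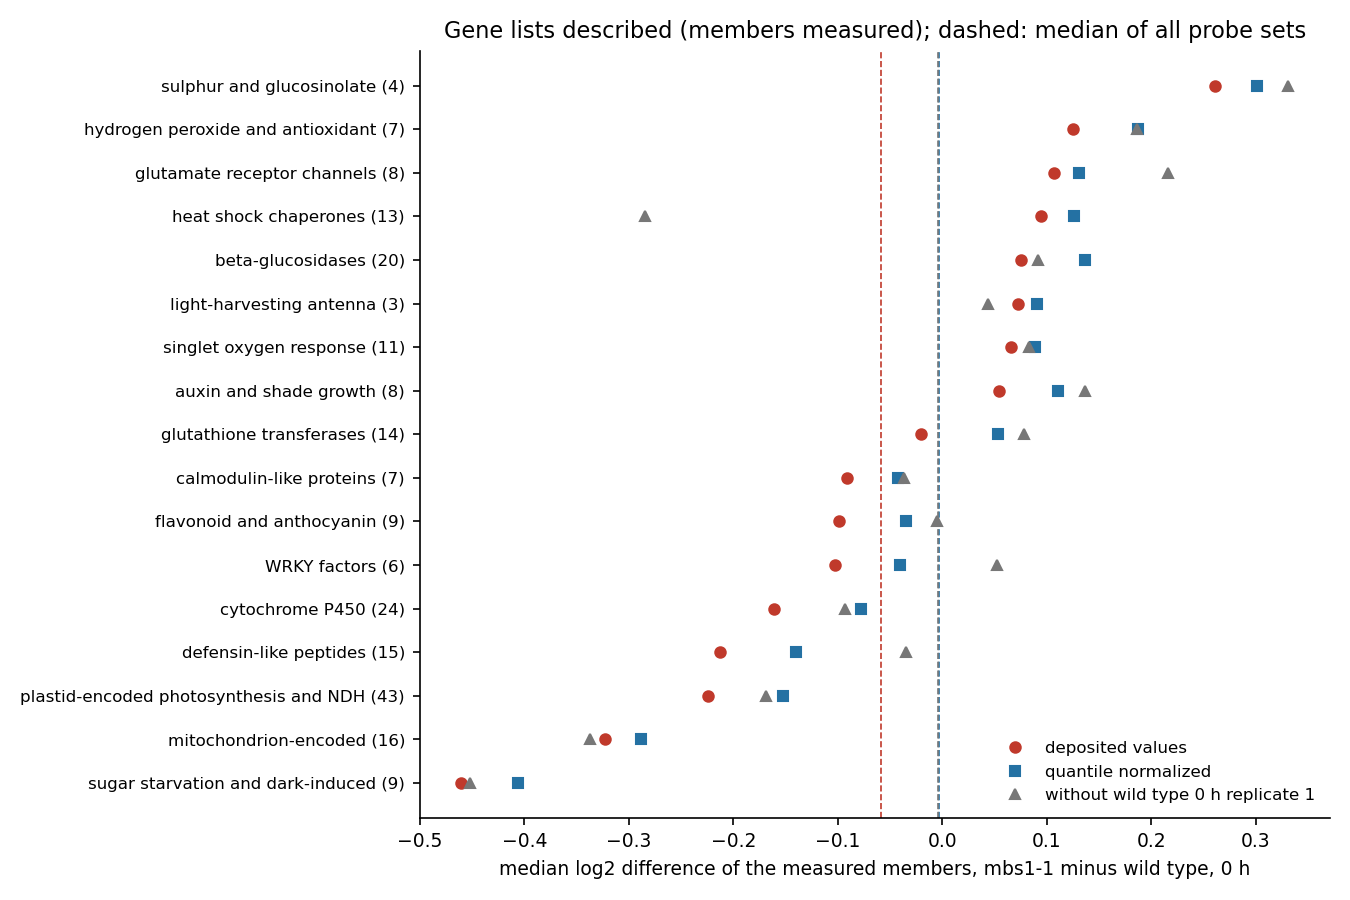
Median log2 difference between mbs1-1 and wild type at 0 h of the 17 described lists, for deposited values (circles), after quantile normalization (squares) and without wild-type replicate 1 (triangles), with the same median over all probe sets as dashed lines. Genes of darkness and sugar starvation lie lowest at -0.46, -0.41 and -0.45, whereas heat shock chaperones move from 0.09 to -0.28 without that array.

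The small differences were set beside the response to high light. That response was taken from 35S:MBS1, whose 6 arrays are in neither group compared here, and the comparison was chosen after its values were seen. The 3 h groups had 3 h of darkness before the light, and the labels do not say whether the 0 h groups had it. In this response, changes with that darkness cannot be told apart from changes with high light. The RNA controls of 35S:MBS1 also moved between the times, with overlap. The actin 3' minus 5' signal was 6.30 to 6.68 at 0 h and 6.54 to 7.02 at 3 h. The 25S ribosomal RNA control was 4.25 to 5.16 and 3.704 to 4.365. At 0 h mbs1-1 lay on the 3 h side of wild type in both controls. The part of RNA quality in the shares below was not tested. Between 0 h and 3 h, 22.0% of all probe sets rose and 25.0% fell in 35S:MBS1 at an adjusted p under 0.05. Of the 1513 probe sets lower in mbs1-1 before high light at an unadjusted p under 0.05, 46.9% fell and 10.3% rose with high light in 35S:MBS1. Of the 395 that were higher, 53.2% rose and 6.08% fell. The shares were 51.1% and 10.0%, and 44.2% and 9.23%, after quantile normalization. Leaving out 1 array at a time gave 33.3% to 58.2% falling among the lower and 42.8% to 53.5% rising among the higher. Probe sets are not independent of each other, so no p is given.

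The same was seen from the other side. The 1859 probe sets that high light lowered in 35S:MBS1 by at least 1 on the log2 scale had a median difference of -0.18 between mbs1-1 and wild type at 0 h, and 80.3% of them lay below 0, beside 62.5% of all probe sets. Their mean log2 signal was 8.91, 8.87 and 8.80 in the wild-type arrays and 8.72, 8.68 and 8.62 in the mbs1-1 arrays. These groups did not overlap, nor did they after quantile normalization, with 8.82, 8.88 and 8.81 against 8.75, 8.69 and 8.65. The mean difference of -0.185 compares with a drop from 8.81, 8.82 and 8.83 to 7.08, 7.12 and 7.09 with high light in 35S:MBS1.

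The 2078 probe sets that high light raised in 35S:MBS1 by at least 1 had a median difference of 0.07, beside -0.06 for all probe sets. Of them 61.7% lay above 0 and 38.3% below, where 62.5% of all probe sets lay below. Their mean was 7.08, 6.93 and 7.03 in wild type and 7.05, 7.08 and 7.12 in mbs1-1, which overlapped, and 6.95, 6.95 and 7.06 against 7.08, 7.08 and 7.14 after quantile normalization, which did not. The mean difference was 0.071 as deposited and 0.028 without wild-type replicate 2. Other lines were placed on the same scale for the lowered set. The means of RNAi-MBS2/mbs1-1 were 8.751, 8.600 and 8.795, all below the lowest wild-type array at 8.799. After quantile normalization its highest array was 8.797 and the lowest of wild type 8.8095. Against the same wild-type arrays its median was -0.14, with 78.1% below 0, beside -0.04 for all probe sets. In flu the median was -0.06, with 63.1% below 0, beside -0.05 for all probe sets. The flu means were 8.65, 8.77 and 8.93. These flu arrays ranged from among the mbs1-1 values to above the highest wild-type array.

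**Figure D5:**
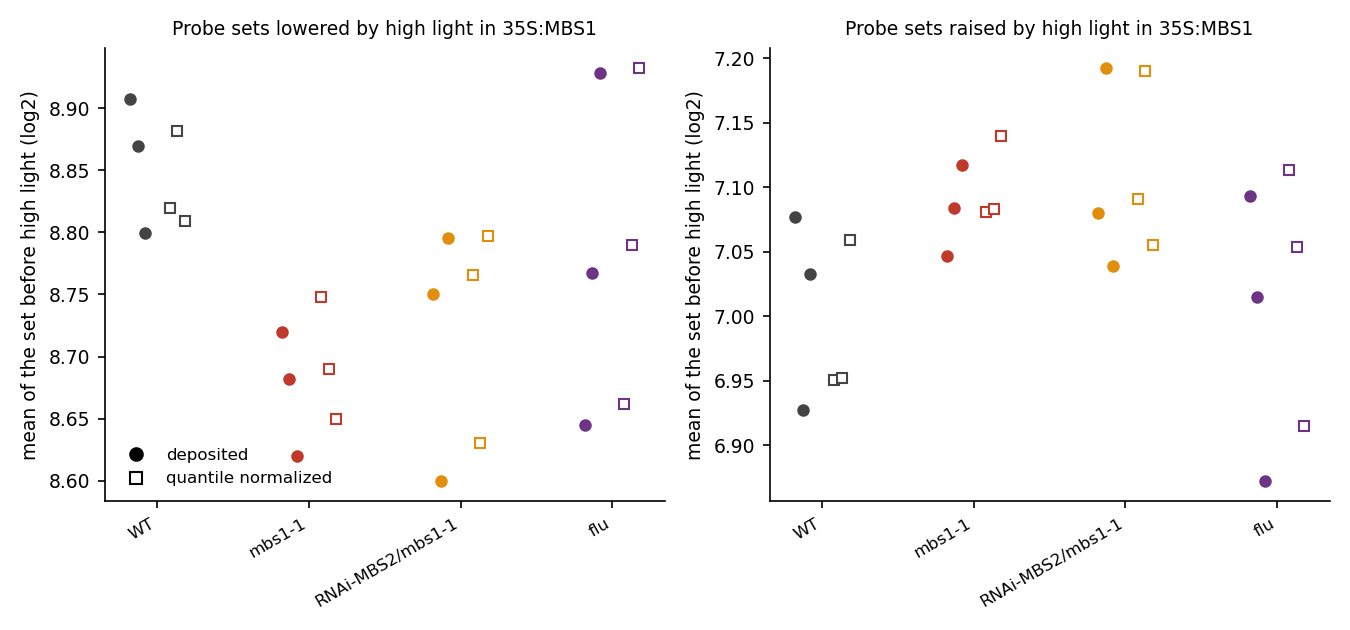
Mean log2 signal before high light, for each array, of the 1859 probe sets lowered (left) and the 2078 raised (right) by high light in 35S:MBS1, as deposited (filled circles) and after quantile normalization (open squares); the vertical axes do not start at 0. The mbs1-1 arrays lie below the wild-type arrays on the left, at 8.62 to 8.72 against 8.80 to 8.91, while the 3 flu arrays range from 8.65 to 8.93.

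The differences before high light were compared with those at 3 h. At 3 h limma called 99 probe sets between mbs1-1 and wild type, 64 higher and 35 lower, or 0.281% and 0.154% of those tested. Without mbs1-1 3 h replicate 1, an array with a mean of 6.96, the count was 16. Of the 7 probe sets called at 0 h, 5 were also called at 3 h in the same direction, and the exceptions were probe-258111_at and probe-260973_at. The difference itself changed between the times for 12 probe sets, all with a higher value at 3 h, and 6 of these are named here. Beside probe-258111_at they are UGT85A4, AT4G25580, UGT78D2, UGT84A1 and GSTU28, all lower in mbs1-1 before high light and higher after it.

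GSTU28 had the largest such change. It measured 4.41, 4.45 and 4.77 in wild type and 3.83, 4.04 and 4.08 in mbs1-1 at 0 h, and 5.98, 5.96 and 7.16 against 8.07, 7.99 and 8.04 at 3 h. The 3 h difference exceeded that at 0 h by 2.23 (SE 0.35, adjusted p = 0.0102). UGT84A1, of the flavonoid and anthocyanin list, measured 10.42, 10.23 and 10.08 in wild type and 11.01, 10.92 and 10.91 in mbs1-1 at 3 h. That is a difference of 0.70 (SE 0.14, adjusted p = 0.0203) in place of -0.41 at 0 h. Without both bright arrays, wild-type 0 h replicate 1 and mbs1-1 3 h replicate 1, probe-258111_at alone was called, at an adjusted p of 0.0171, and the others had 0.0659 to 0.486.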

How the data were processed

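Log2 RMA signals of 30 Affymetrix ATH1 arrays were used as deposited; the authors made them with RMA in affy, per the submitters' processing notes, and whether all arrays were normalized together is not given in the sources used here. Of 22810 probe sets 64 controls were left out. The annotation held assigns 1 gene to 13513 of the others, several to 503 and none to 8730; symbols follow RefSeq TAIR10.1. A gene was represented by its probe set with the highest mean over all arrays.

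Groups followed the labels. All 30 arrays entered 1 fit of 10 group means (limma 3.58.1, lmFit and eBayes, under R 4.3.3), and p-values were adjusted by Benjamini-Hochberg across 22746 probe sets. The steps were tested on simulated data. The number of arrays limits the precision; residual SDs had a median of 0.20 (log2).

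Members, lists and tests were chosen with earlier results of these data known. Lists were written from general knowledge and from gene family symbols, and revised once the annotation was seen. The text names all called probe sets, the 12 genes with the smallest p in each direction whose groups do not overlap, up to 4 members with the smallest p of each list past the margin, and all measured antioxidant genes; AT3G52070 and AT1G62250 count under the first and second. Further members are named after their values were seen. Alternatives were the compared arrays alone, a replicate block, a mean of at least 5, quantile normalization, median centring, a trended robust prior, only probe sets with 1 gene, and arrays left out.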

Additional observations from a re-analysis of the deposited data

Results flagged for a closer look

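For 6 of the named probe sets the difference between mbs1-1 and wild type changed between 0 h and 3 h of high light by limma's test of the difference itself, each with the higher value at 3 h. The 3 h difference exceeded the 0 h difference by 1.55 for probe-258111_at, 2.23 for GSTU28, 1.38 for AT4G25580, 1.11 for UGT84A1, 1.04 for UGT85A4 and 0.88 for UGT78D2. Adjusted p was 0.0038, 0.0102, 0.0418, 0.0264, 0.0432 and 0.0262. Probe-258111_at was called in every alternative that tested it, with adjusted p up to 0.0315. GSTU28 missed the threshold in the fit to the compared arrays alone (0.071), without wild-type 3 h replicate 2 (0.064) and without both bright arrays (0.0659). The other calls were lost in 10 of 20 alternatives for UGT84A1, 12 of 20 for UGT78D2, 14 of 20 for UGT85A4 and 14 of 19 for AT4G25580, among them the compared arrays alone, median centring, the replicate block and several fits without 1 array, bright or not. The highest adjusted p was 0.275, 0.258, 0.486 and 0.19. The sizes moved less: over the same alternatives the value was 0.94 to 1.23 for UGT84A1, 0.77 to 0.98 for UGT78D2, 0.92 to 1.1 for UGT85A4 and 1.12 to 1.55 for AT4G25580. For UGT85A4 it was 0.96 after quantile normalization and 0.97 after median centring.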

How the results depend on the processing

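The number of calls at 0 h was 5 to 10 when arrays were left out in turn, with 5 to 7 of the original 7 among them; the 10 without wild-type replicate 3 held 5 of the 7 and 5 others. It was 2 among probe sets with 1 gene, where fewer were tested, and 8 with the compared arrays alone, 5 of them among the 7. Probe sets with an unadjusted p under 0.05 were 1151 when only those with 1 gene were tested (208 higher, 943 lower). They were 2227 with the compared arrays alone (562 higher, 1665 lower), and 1311 to 2533 with arrays left out (215 to 607 higher, 797 to 2115 lower). Higher ones numbered 813 after quantile normalization, 599 after median centring and 665 without both bright arrays, when 912 were lower; 20.7% of the 1908 were higher as deposited, against 43.7% after quantile normalization and 32.2% after centring. With the replicate block there were 7 calls and 1793 at an unadjusted p under 0.05. Deviations of same-numbered wild-type and mbs1-1 arrays correlated at -0.08, -0.02 and 0.09, and those of other pairs at -0.11 to 0.14. With 3 arrays a group this cannot decide whether the replicate numbers share a batch.

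At 3 h the 99 calls were 2 with the compared arrays alone, 48 with 1-gene probe sets, 16 to 144 with arrays left out and 15 without both bright arrays. The 12 changes between the times were 3 with the compared arrays alone, 7 with the replicate block, 7 after quantile normalization, 4 after centring, 7 with 1-gene probe sets, 1 to 28 with arrays left out and 1 without both bright arrays. The 1 call between RNAi-MBS2/mbs1-1 and mbs1-1 was 0 with the compared arrays alone, where only 6 arrays estimate the spread, 3 after quantile normalization, 2 after centring, 2 with the robust prior, 1 to 15 with arrays left out and 3 without both bright arrays. Other causes of these shifts were not tested. The number of lists past the margin was 16 to 24, and the mean difference of the probe sets lowered by high light was -0.21 to -0.14.

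No array has a detection call here, so levels near the lowest signals cannot be called absent.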
